A study of Mus musculus with 6 samples.

Results

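The genes described here are 28 genes of cholesterol and fatty acid synthesis, chosen by name as the enzymes of both pathways together with their sterol-sensing regulators. All 28 are among the 54532 genes of the deposited table, and all 28 passed the filter on low values (0.5 FPKM or more on average in the 6 libraries) that left 15874 genes to test. They comprise 7 genes of the mevalonate pathway, 11 genes of the steps from squalene to cholesterol, 4 genes of regulation and sterol transport, and 6 genes of fatty acid synthesis and desaturation.

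RNA was sequenced from mouse T cells grown together with ID8, a cell line of mouse ovarian cancer, to ask how tumour cells exposed to cisplatin alter T cells. In the cisplatin group (3 libraries) the ID8 cells had been pretreated with 40 µM cisplatin, and in the control group (3 libraries, labelled WT) with PBS. In both groups the T cells came from spleens of young adult C57BL/6 mice, were selected with a pan T-cell kit, kept in medium with IL-2 and pre-activated with anti-CD3/28 beads. The length of the co-culture is not given in the sources used here, and the labels do not say whether the libraries of a group came from separate mice or cultures, so p-values measure only the spread between these libraries, which may be technical.

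Values are FPKM, that is, fragments per kilobase of gene, scaled by the authors to the size of each library. Reads on genes, rebuilt from the FPKM and gene lengths, numbered 30847321 to 32169496 in the cisplatin libraries and 30606569 to 31255205 in the control libraries. The members held between 125 and 68261 reads in a library, and the coefficient of variation between replicates had a median of 3.44% over the members (range 0.45 to 14.92%). The standard error of a log2 fold change had a median of 0.046 over them (0.029 to 0.18). The libraries differed in the level of cell-type markers. The 26 T-cell identity genes summed to 3189 to 3262 FPKM with cisplatin and 2033 to 2162 FPKM in controls, and 24 of them passed the test as higher. The 25 ID8 markers, which include keratins and mesothelial genes, summed to 250 to 258 FPKM with cisplatin and 1642 to 1723 FPKM in controls, with 15 of the 16 tested lower. The untested ID8 markers averaged under 0.5 FPKM, and only Col3a1 was at 0 in every library. Although the sample labels read T cells, summed B-cell markers (10 genes, led by the immunoglobulin chain Ighm at 3220 and 1433 FPKM) were 3637 to 3710 against 1699 to 1786 FPKM, and summed myeloid markers (12 genes) were 150 to 170 against 81.7 to 86.5 FPKM. All 4 sums separated the groups, and their part in the results below was not tested.

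Cholesterol is built from acetyl-CoA through mevalonate, isoprenoid units, squalene and lanosterol, while fatty acid synthesis begins with the release of cytosolic acetyl-CoA from citrate and its carboxylation to malonyl-CoA. Both pathways are under the control of the sterol regulatory element-binding proteins, membrane-bound transcription factors that are carried to the Golgi by SCAP and released there by cleavage when sterols are low. INSIG proteins hold SCAP in the endoplasmic reticulum when sterols are plentiful, and the liver X receptors, which sense oxysterols, drive sterol efflux and raise Srebf1. Activated T cells are known to increase both pathways to supply membrane for growth and division. Tumour cells use the same enzymes, so the RNA of these genes in a co-culture may come from either cell type. It may also come from cells that carry the B-cell and myeloid markers described above.

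Promoters were examined because the members are textbook targets of one set of factors. RefSeq start windows (GRCm38.p6, 250 bases before to 50 bases after a start) were matched by symbol for 22 of the 28 members, in 27 windows of 300 bases. Fdft1, Fdps, Scd1, Scd2, Sqle and Stard4 had no entry. Motifs were searched on both strands, namely the sterol regulatory element TCACNCCAC, the NF-Y box CCAAT (a site of the trimeric factor that often works beside these proteins) and the E-box CACGTG. The sequences below belong to Fasn, Insig1 and Mvd (strong rises), Ebp (the strongest fall) and Hmgcs1, the single member with an exact TCACNCCAC match. They were chosen after their values were seen, run 5′ to 3′ in the direction of the gene and stop before the first transcribed base of either annotation. Capitals mark any of the 3 motifs on either strand, and in Fasn a pair of NF-Y boxes on opposite strands overlap.
Fasn, chr11:120824548-120824797, minus strand: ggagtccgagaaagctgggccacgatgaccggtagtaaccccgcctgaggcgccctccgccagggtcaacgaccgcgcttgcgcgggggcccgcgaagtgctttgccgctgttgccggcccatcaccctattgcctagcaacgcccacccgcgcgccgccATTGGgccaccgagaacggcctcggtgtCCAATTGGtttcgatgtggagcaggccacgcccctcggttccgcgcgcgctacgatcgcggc
Insig1, chr5:28071162-28071362, plus strand: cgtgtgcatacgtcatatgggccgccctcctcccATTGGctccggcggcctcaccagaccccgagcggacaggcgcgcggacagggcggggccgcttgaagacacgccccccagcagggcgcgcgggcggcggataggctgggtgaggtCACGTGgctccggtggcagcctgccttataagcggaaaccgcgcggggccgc
Mvd, chr8:122443423-122443672, minus strand: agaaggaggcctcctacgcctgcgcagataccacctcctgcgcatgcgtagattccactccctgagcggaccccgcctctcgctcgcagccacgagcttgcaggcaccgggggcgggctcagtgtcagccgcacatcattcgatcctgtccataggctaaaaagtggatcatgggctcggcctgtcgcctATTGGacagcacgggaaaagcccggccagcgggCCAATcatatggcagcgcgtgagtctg
Hmgcs1, chr13:119690101-119690350, plus strand: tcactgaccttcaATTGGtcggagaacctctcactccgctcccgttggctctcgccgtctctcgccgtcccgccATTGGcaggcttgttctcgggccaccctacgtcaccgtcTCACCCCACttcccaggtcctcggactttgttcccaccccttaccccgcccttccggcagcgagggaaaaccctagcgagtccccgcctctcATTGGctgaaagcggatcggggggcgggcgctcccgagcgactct
Ebp, chrX:8193513-8193762, minus strand: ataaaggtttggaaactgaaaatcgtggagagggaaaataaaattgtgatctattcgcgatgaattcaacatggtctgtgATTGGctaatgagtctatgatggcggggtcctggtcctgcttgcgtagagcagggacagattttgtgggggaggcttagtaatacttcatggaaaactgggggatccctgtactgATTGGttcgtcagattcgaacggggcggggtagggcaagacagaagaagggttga
The NF-Y box was present in 19 of the 22 members with a window (86.4%), against 42.47% of the 10042 tested genes with a window and 37.41% of all 32851 windows. In all, 10 members (45.5%) had 2 or more boxes in a window, against 16.4% of tested genes. Acaca, Acat2 and Elovl6 had none of these letters. An exact match to TCACNCCAC was found in 1 member, Hmgcs1, with its first base 137 bases before the start, against 1.38% of tested genes. Variants of these letters and sites outside the windows were not searched, so the other members may still hold a sterol element. The E-box was found in Dhcr7, Hsd17b7, Insig1 and Sc5d (18.2%), against 11.64% of tested genes. A gene with several windows had more chances to hold a motif (3 members had more than 1, up to 3 windows). Fasn and Ebp, which moved in opposite directions, both carried 2 or more NF-Y boxes.

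Across the 28 genes, 17 were higher and 3 were lower with cisplatin at an adjusted p under 0.05 on the FPKM scale as deposited, while 10 of the 17 had a negative fold change once libraries were centred on T-cell genes. Centring made 62.1% of all tested genes pass as lower and 5.75% as higher, so a negative value after it is common in the whole table. Among all 15874 tested genes 27.5% passed as higher and 29% as lower, and among the members 60.7% and 10.7%. These shares are a description, since the members were chosen with results known. The median log2 fold change of the members was 0.20, against 0.03 for all tested genes. None of the 28 reached a 2-fold change in limma on log2(FPKM + 0.1), at the adjusted or at an unadjusted p under 0.05 (21 members had an unadjusted p under 0.05), whereas 4.11% of all tested genes were called higher and 12.8% lower at that size. In limma voom on the rebuilt reads 1 member, Fasn, reached it with a log2 fold change of 1.01. The libraries of both groups did not overlap for 18 members that were higher and 5 that were lower with cisplatin (all tested genes, 31.9% and 32.3%), and overlapped for Pmvk, Fdps, Lss, Sc5d and Dhcr7. Since this is RNA from a mixed culture, fewer cells of a type and less RNA per cell cannot be told apart in any of these values. Every adjusted p below comes from limma with Benjamini-Hochberg (BH) adjustment over the 15874 genes, with 3 libraries in each group.

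**Figure D1:**
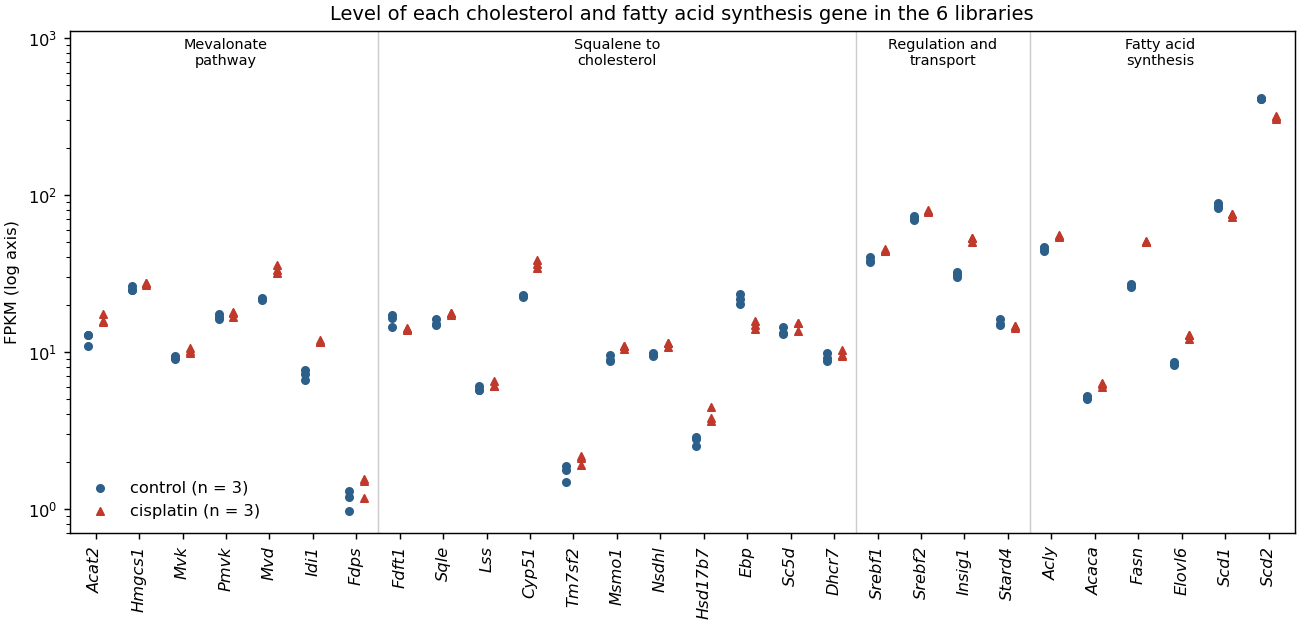
Level of each of the 28 genes in FPKM (log axis), in pathway order, with 1 point per library (circles for 3 control libraries, triangles for 3 cisplatin libraries). Scd2 lies above the other members in both groups, Fdps and Tm7sf2 lie lowest, and the triangles lie clear above the circles for Fasn, Insig1, Idi1, Cyp51, Mvd and Elovl6 and clear below them for Ebp, Scd1 and Scd2.

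Levels per kilobase spanned a wide range. Scd2 was the most abundant member in both groups, at 409 ± 4.42 FPKM in controls and 311 ± 7.0 FPKM with cisplatin (mean ± SD, n = 3). In controls it was followed by Scd1 at 85.6 FPKM, Srebf2 at 71.3 FPKM and Acly at 45.5 FPKM. With cisplatin Srebf2 (79.0 FPKM) stood above Scd1 (74.2 FPKM), in all 3 libraries. Hsd17b7, Tm7sf2 and Fdps were the lowest members in both groups, at 3.96, 2.06 and 1.41 FPKM with cisplatin. Of the 27 pairs of neighbours in the order of levels, 9 overlapped between libraries in controls and 11 with cisplatin. Overlapping stretches of the control order ran from Pmvk over Fdft1 and Sqle to Stard4, and from Nsdhl over Dhcr7 and Mvk to Msmo1.

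In the mevalonate pathway 5 of the 7 genes rose on the FPKM scale, although Acat2, Hmgcs1 and Mvk turned negative after centring on T-cell genes. The strongest rises lay late in the pathway. Idi1, the isomerase that makes dimethylallyl diphosphate, measured 11.63, 11.85 and 11.58 FPKM in the cisplatin libraries and 7.19, 6.65 and 7.62 FPKM in the controls. All cisplatin libraries stood above all controls, a log2 fold change of 0.70 (SE 0.059, limma BH-adjusted p = 7.72e-05). Of the 50-base words in the transcripts of Idi1, 25.29% also occur in 5 other genes, so its level is uncertain to that extent. Mvd, the decarboxylase that yields isopentenyl diphosphate, measured 31.86, 33.31 and 35.5 FPKM with cisplatin and 21.32, 21.64 and 21.93 FPKM in controls. The control libraries were tighter than the cisplatin libraries, and the log2 fold change was 0.63 (SE 0.046, limma BH-adjusted p = 3.75e-05).

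Acat2, the cytosolic thiolase that joins acetyl-CoA units at the entry of the pathway, measured 15.43, 15.75 and 17.31 FPKM with cisplatin and 12.83, 10.87 and 12.9 FPKM in controls. Its groups did not overlap, and its log2 fold change was 0.41 (SE 0.081, limma BH-adjusted p = 0.00505). Of the 50-base words in its transcripts, 39.1% also occur in other genes, chiefly the near copy Acat3 and Tcp1, so its level is uncertain to that extent. Hmgcs1, the synthase that forms HMG-CoA, measured 27.66, 27.42 and 26.55 FPKM against 24.73, 24.79 and 26.22 FPKM, groups that were separate by a narrow margin (log2 fold change 0.11, limma BH-adjusted p = 0.046). Mvk, the kinase that phosphorylates mevalonate, was at 10.2 ± 0.352 FPKM against 9.22 ± 0.262 FPKM (log2 fold change 0.14, limma BH-adjusted p = 0.0374). Both calls were lost when single libraries were left out. Hmgcs1 did not pass when any single library other than control replicate 3 was left out (limma BH-adjusted p from 0.0521 to 0.125). Mvk did not pass without cisplatin replicate 2 or 3 or control replicate 2 or 3 (0.0766 to 0.113). Over all 18 alternatives, limma BH-adjusted p ran from 8.41e-05 to 0.125 for Hmgcs1 and from 0.00053 to 0.113 for Mvk. The smallest value of each came from T-cell centring, where both genes passed as lower (log2 fold change -0.40 and -0.37).

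Pmvk, the next kinase in the pathway, measured 17.5 ± 0.605 FPKM with cisplatin and 16.8 ± 0.652 FPKM in controls, and its groups overlapped (limma BH-adjusted p = 0.312). Fdps, the synthase of farnesyl diphosphate, had the lowest level of all 28 genes, at 1.18, 1.56 and 1.51 FPKM with cisplatin and 1.19, 1.31 and 0.97 FPKM in controls, and did not pass (log2 fold change 0.27, SE 0.18, limma BH-adjusted p = 0.248). For Fdps 26.19% of the 50-base words are shared with other genes, among them the overlapping readthrough gene Gm43738 and the copies Gm3571 and Gm5873. Gm3571 alone was listed at 7.66 FPKM with cisplatin and 7.54 FPKM in controls, above Fdps itself. How reads matching several genes were treated is not given in the sources used here, so neither the low level of Fdps nor its fold change can be read as that of the gene.

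Between squalene and cholesterol the 11 genes moved unevenly, with 5 higher, 1 lower and 5 that did not pass, and after T-cell centring Cyp51 was the single gene of this group that passed as higher. Hsd17b7 was then near 0 (log2 fold change 0.01) and no longer passed. Cyp51, the lanosterol demethylase, measured 34.28, 36.11 and 38.63 FPKM with cisplatin and 23.13, 22.75 and 22.47 FPKM in controls. No cisplatin library came near the controls, and the log2 fold change was 0.67 (SE 0.048, limma BH-adjusted p = 3.71e-05). Akap9, whose gene overlaps the end of Cyp51 on the opposite strand, was at 10.7 FPKM in both groups. Hsd17b7, a ketoreductase of sterol demethylation, measured 3.63, 3.81 and 4.44 FPKM against 2.85, 2.78 and 2.51 FPKM, with the largest spread among the rises that passed (log2 fold change 0.53, SE 0.10, limma BH-adjusted p = 0.00436).

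Smaller rises were seen for the oxidase and dehydrogenase of C4 demethylation and for squalene epoxidase, all 3 of which turned negative after centring on T-cell genes. Msmo1 was at 10.7 ± 0.249 FPKM with cisplatin and 9.04 ± 0.402 FPKM in controls (log2 fold change 0.25, limma BH-adjusted p = 0.00496). Nsdhl was at 11.2 ± 0.372 FPKM against 9.64 ± 0.242 FPKM (log2 fold change 0.21, limma BH-adjusted p = 0.00659). Sqle, a rate-limiting enzyme of the later pathway, was at 17.5 ± 0.248 FPKM against 15.3 ± 0.692 FPKM (log2 fold change 0.20, limma BH-adjusted p = 0.00805). The libraries of both groups were separate for each of the 3.

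Ebp, the sterol isomerase that shifts the ring double bond, went the other way. It measured 14.74, 15.65 and 14.02 FPKM with cisplatin and 20.06, 23.42 and 21.64 FPKM in controls, and it fell under each of the 18 alternatives. The log2 fold change was -0.55 (SE 0.069, limma BH-adjusted p = 0.000557), the strongest fall among the 28 genes, and no 50-base word of Ebp is shared with another gene. The ratio of Cyp51 to Ebp, a measure within each library that the scaling between libraries cannot change, was 2.46 ± 0.253 with cisplatin and 1.05 ± 0.0919 in controls. In controls both genes thus had about the same FPKM, while with cisplatin Cyp51 was well above Ebp in all 3 libraries.

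The 5 sterol genes that did not pass were Fdft1, Lss, Tm7sf2, Sc5d and Dhcr7. Fdft1, squalene synthase, measured 13.71, 14.09 and 14.18 FPKM with cisplatin and 16.39, 14.42 and 17.11 FPKM in controls (log2 fold change -0.19, limma BH-adjusted p = 0.0513). It passed as lower in 5 of its 18 alternatives (limma BH-adjusted p from 8.25e-05 to 0.359 over all 18). These were T-cell centring, TPM scaling, a mean of at least 5 FPKM, protein-coding genes alone and leaving out control replicate 2 (limma BH-adjusted p = 0.00516). The Fdft1 gene overlaps that of Ctsb, a lysosomal protease, by 774 bases on the opposite strand, and Ctsb itself was lower (log2 fold change -0.57, limma BH-adjusted p = 4.36e-06). Whether reads were counted by strand is not given in the sources used here, so the 2 genes cannot be told apart in the shared stretch. Tm7sf2, a sterol reductase, was at 2.06 ± 0.137 FPKM against 1.71 ± 0.198 FPKM (limma BH-adjusted p = 0.128). Its gene overlaps that of Vps51 by 9356 bases on the same strand, and Vps51 itself was higher (log2 fold change 0.85, limma BH-adjusted p = 0.024, and no longer passed after T-cell centring). Lss, lanosterol synthase, Sc5d, a sterol desaturase, and Dhcr7, the last reductase of the pathway, had log2 fold changes of 0.09, 0.11 and 0.08, and their groups overlapped.

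Among the regulators, Insig1 stood apart. Insig1, the endoplasmic reticulum anchor of SCAP and itself a target of the sterol-sensing factors, measured 50.2, 53.06 and 53.16 FPKM with cisplatin and 30.1, 32.23 and 31.12 FPKM in controls. The log2 fold change of 0.74 (SE 0.040, limma BH-adjusted p = 9.09e-06) was the second largest among the 28 genes and remained positive after centring on T-cell genes. Insig2, its paralogue, is not a member of the list and moved in the opposite direction, at 9.64, 11.36 and 10.96 FPKM with cisplatin and 36.59, 39.07 and 36.12 FPKM in controls (log2 fold change -1.80, SE 0.069, limma BH-adjusted p = 2.01e-06). The ratio of Insig1 to Insig2 within a library was 4.91 ± 0.274 with cisplatin and 0.836 ± 0.0218 in controls. Insig2 was thus the more abundant paralogue in every control library and the less abundant in every cisplatin library.

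Both genes of the transcription factors themselves changed little. Srebf1 was at 44.1 ± 0.721 FPKM with cisplatin and 38.5 ± 1.42 FPKM in controls (log2 fold change 0.20, limma BH-adjusted p = 0.00362), and Srebf2, the main activator of the cholesterol genes, at 79.0 ± 1.18 FPKM against 71.3 ± 1.77 FPKM (log2 fold change 0.15, limma BH-adjusted p = 0.00572). Both passed as higher on the FPKM scale and as lower after centring on T-cell genes. The ratio of Srebf2 to Srebf1 was 1.79 ± 0.0544 with cisplatin and 1.85 ± 0.0314 in controls, with overlapping libraries. Stard4, a soluble carrier of cholesterol, was at 14.5 ± 0.217 FPKM against 15.3 ± 0.676 FPKM (log2 fold change -0.07, limma BH-adjusted p = 0.205).

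Fatty acid synthesis split between its synthase and its desaturases. Fasn, which builds palmitate from malonyl-CoA, measured 50.14, 50.49 and 50.06 FPKM with cisplatin and 26.94, 26.33 and 25.94 FPKM in controls. Replicates differed by far less than the groups, and the log2 fold change of 0.93 (SE 0.029, limma BH-adjusted p = 8.17e-07) was the largest of the 28 genes. Elovl6, which extends palmitate, measured 12.17, 12.84 and 12.85 FPKM against 8.48, 8.59 and 8.22 FPKM (log2 fold change 0.58, SE 0.044, limma BH-adjusted p = 5.04e-05), although it no longer passed after centring. The steps upstream of Fasn moved less, and both turned negative after centring on T-cell genes. Acly, which releases acetyl-CoA from citrate, was at 54.7 ± 0.631 FPKM against 45.5 ± 1.36 FPKM (log2 fold change 0.27, limma BH-adjusted p = 0.000487). Acaca, the carboxylase that makes malonyl-CoA, was at 6.18 ± 0.212 FPKM against 5.12 ± 0.130 FPKM (log2 fold change 0.27, limma BH-adjusted p = 0.00575). Its level is less certain, since 30.43% of the 50-base words of Acaca also occur among 335 other genes. Within a library Fasn was 0.918 ± 0.0071 times Acly with cisplatin and 0.580 ± 0.0131 times Acly in controls, so the unequal change of the 2 genes did not depend on the scaling between libraries.

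The stearoyl-CoA desaturases, which place the double bond of oleate and palmitoleate, both fell. Scd2 measured 311.2, 304.5 and 318.5 FPKM with cisplatin and 405.7, 414.2 and 407.9 FPKM in controls (log2 fold change -0.39, SE 0.030, limma BH-adjusted p = 4.9e-05). Scd1 measured 71.76, 75.39 and 75.46 FPKM against 88.84, 82.48 and 85.48 FPKM (log2 fold change -0.21, SE 0.039, limma BH-adjusted p = 0.00382). The groups were separate for both, and both passed as lower under all 18 alternatives. The paralogues share 4.56% of the 50-base words of Scd1 and 3.97% of those of Scd2 with other genes, chiefly with each other, Scd3 and Scd4, and the last pair were under 1 FPKM. The ratio of Scd2 to Fasn within a library was 15.5 ± 0.386 in controls and 6.20 ± 0.166 with cisplatin.

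**Figure D2:**
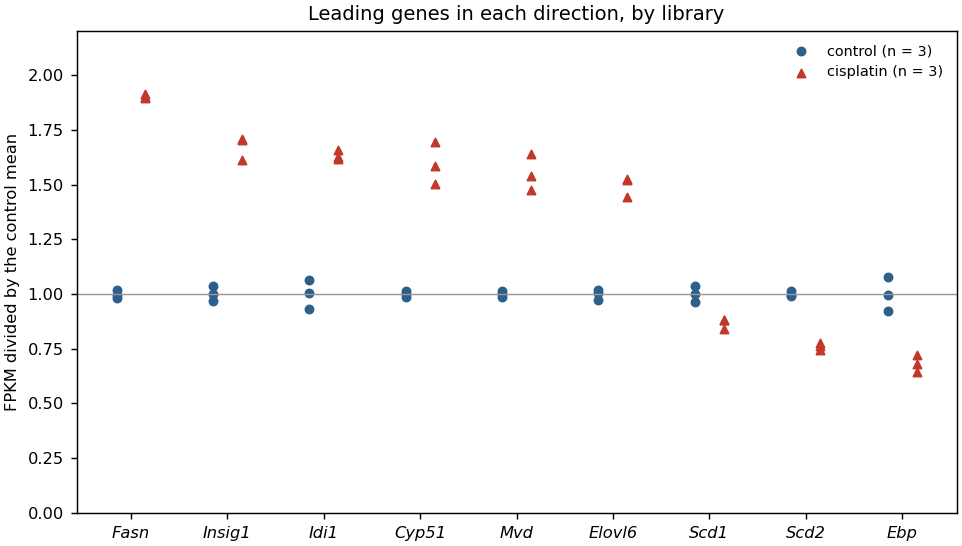
FPKM of 9 genes divided by the control mean of each gene, with 1 point per library (circles for 3 control libraries, triangles for 3 cisplatin libraries, and a line at the control mean). Fasn, at a ratio of means of 1.90, and Insig1, Idi1, Cyp51, Mvd and Elovl6 lie above their controls, and Scd1, Scd2 and Ebp lie below theirs, with no overlap. With T-cell centring 5 of the 6 higher genes still passed as higher, and Elovl6 (log2 fold change 0.06) did not.

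On the FPKM scale as deposited, the summed level of the 28 genes was almost the same in both groups while its composition shifted. The sum was 947 to 972 FPKM with cisplatin and 954 to 960 FPKM in controls, a ratio of means of 1.0006, with overlapping libraries. Within it the 6 fatty acid genes were at 580 ± 3.40 FPKM in controls and 509 ± 7.15 FPKM with cisplatin. The mevalonate genes were at 93.4 ± 2.98 FPKM in controls and 118 ± 2.58 FPKM with cisplatin, the sterol genes at 128 ± 0.889 and 141 ± 2.60 FPKM, and the regulators at 156 ± 3.21 and 190 ± 2.12 FPKM. Scd2 alone made up 42.74% of the summed FPKM in controls and 32.5% with cisplatin, and Fasn 2.76% and 5.24%. Without Scd1 and Scd2 the other 26 genes summed to 463 ± 2.67 FPKM in controls and 573 ± 7.63 FPKM with cisplatin, 1.24 times as much. The near-equal sums and the ratio of 1.24 hold on this scale alone, since T-cell centring lowers every log2 fold change by 0.51. Shares within a library do not depend on the scaling between libraries. These sums describe the list and were not tested.

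**Figure D3:**
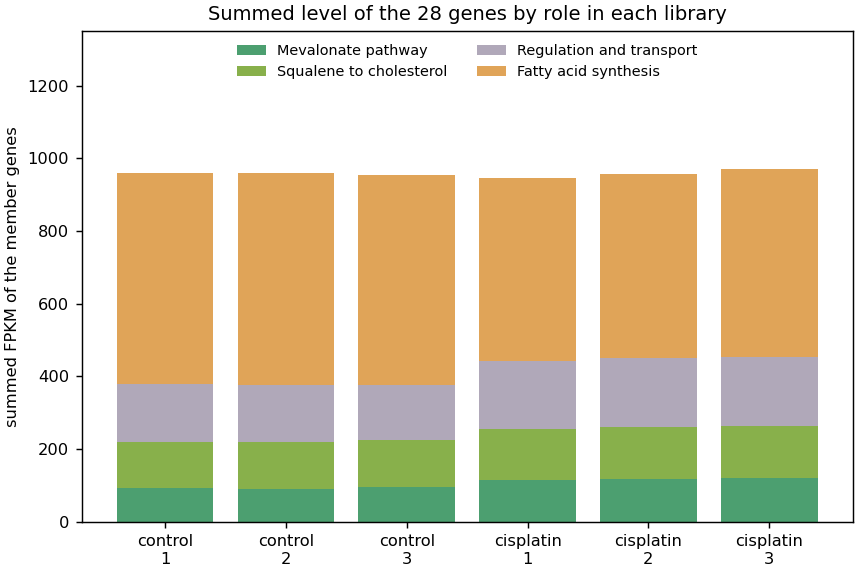
Summed FPKM of the 28 genes in each library, stacked by role (bars start at 0, for 3 control and 3 cisplatin libraries, no error bars because each bar is a single library). On the FPKM scale as deposited, the bars are of nearly equal height, between 947 and 972 FPKM. The fatty acid part, which holds Scd2, is smaller in the cisplatin libraries.

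The direction of the list depended on what the libraries were scaled to. As deposited, 23 of the 28 log2 fold changes were positive. Each library was then centred on the mean log2 value of the 26 T-cell identity genes. The median of all tested genes moved from 0.03 to -0.48 and that of the members from 0.20 to -0.31. Centring shifts every gene by the same amount, so the distance of 0.18 between these medians could not change. With this centring 5 members passed as higher, namely Fasn (log2 fold change 0.41), Insig1 (0.23), Idi1 (0.19), Cyp51 (0.16) and Mvd (0.12), and 18 passed as lower. These are 17.9% and 64.3% of the members, beside 5.75% and 62.1% of all tested genes under the same centring, so the share of members that were lower was near that of the whole table. Of the 17 members that had passed as higher, 9 then passed as lower and 3 (Acat2, Hsd17b7 and Elovl6) did not pass. Ebp, Scd1 and Scd2 were lower under both scalings, and Ebp reached a 2-fold change after centring, at -1.06. Fasn, Insig1, Idi1, Cyp51, Mvd, Ebp, Scd1 and Scd2 were the 8 members that passed in the same direction under all 18 alternatives run.

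**Figure D4:**
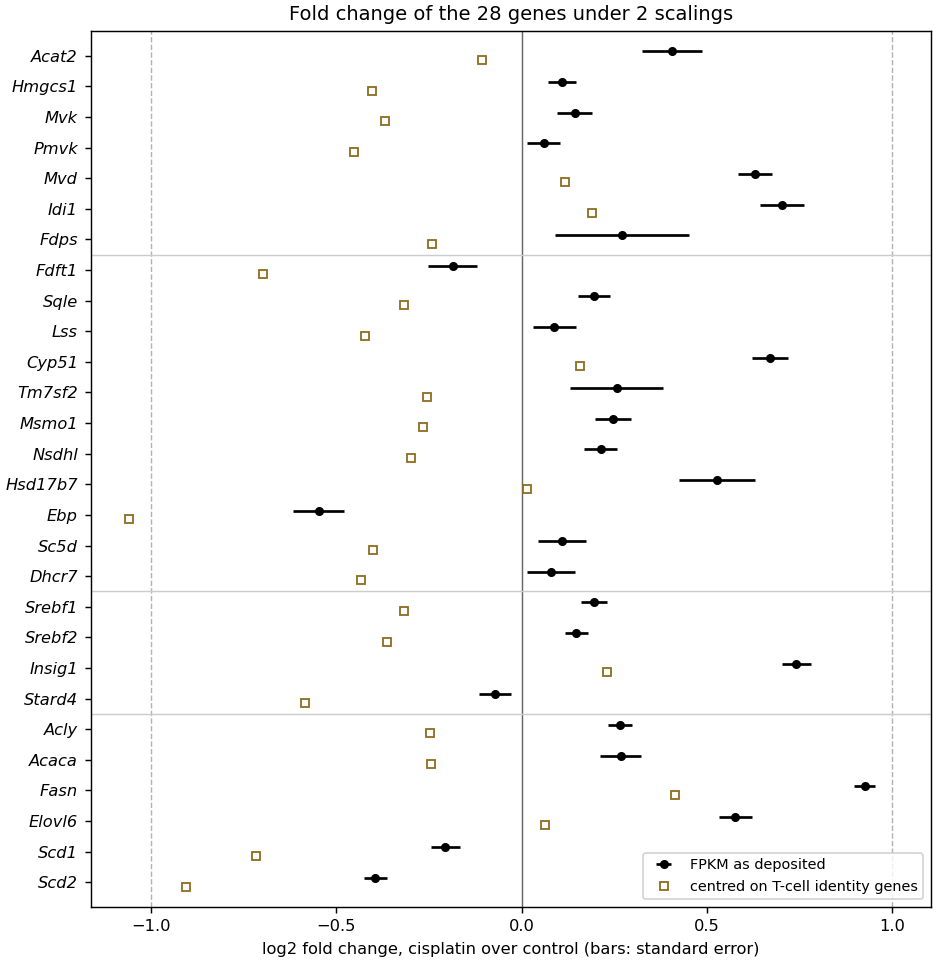
log2 fold change (cisplatin over control) of the 28 genes, in pathway order with lines between the roles, for FPKM as deposited (filled circles, bars are standard errors, n = 3 per group) and after T-cell centring (open squares, no error drawn). Dashed lines mark 2-fold. Centring moves every gene down by the same amount, and Fasn, Insig1, Idi1, Cyp51 and Mvd stay above 0 and pass, with Elovl6 and Hsd17b7 near 0.

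Other genes of the same pathways were taken from lists drawn up by function, with earlier results of these data known. Of 16 further genes of sterol sensing, uptake, storage and synthesis 15 were tested, with 6 higher, 6 lower (0 and 12 after centring, beside 5.75% and 62.1% of all tested genes) and a median log2 fold change of 0.08. Soat1, which esterifies cholesterol for storage, fell from 38.9 ± 0.945 FPKM in controls to 10.4 ± 0.306 FPKM with cisplatin (log2 fold change -1.89, limma BH-adjusted p = 1.58e-07). Soat1 and Insig2 were the 2 genes of that list past 2-fold.

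Among 8 genes of the liver X receptors and sterol efflux 7 were tested, with 4 higher and 2 lower. Of all tested genes 27.5% passed as higher and 29% as lower. After centring 3 of the 7 were higher and 3 lower, beside 5.75% and 62.1% of all tested genes. Abcg1 and Abca1, the transporters that export cholesterol, rose in every cisplatin library over every control, also after centring on T-cell genes. Abcg1 measured 61.49, 62.55 and 66.59 FPKM with cisplatin and 19.73, 20.95 and 20.86 FPKM in controls (log2 fold change 1.63, limma BH-adjusted p = 4.51e-07). Abca1 was at 25.5 ± 0.749 FPKM against 12.0 ± 0.312 FPKM (log2 fold change 1.08, limma BH-adjusted p = 1.7e-06). Myeloid markers, whose cells also express both transporters, were higher in the same libraries (8 of 10 tested), and their part in these values was not tested.

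Of 25 further genes of fatty acid supply, elongation, desaturation and esterification 15 were lower and 5 higher (23 and 0 after centring, beside 62.1% and 5.75% of all tested genes), with a median log2 fold change of -0.36, in contrast to the 0.27 of the 6 members. Me1, the malic enzyme that supplies NADPH for lipid synthesis, measured 19.8, 18.31 and 18.67 FPKM with cisplatin and 141, 134.2 and 135.8 FPKM in controls (log2 fold change -2.85, limma BH-adjusted p = 7.09e-08). This was the largest change of any tested gene in these pathway lists. Acsl4, which activates arachidonate, fell to a log2 fold change of -1.53, Fads1, a desaturase of polyunsaturated fatty acids, to -1.45, and Gpam, which starts glycerolipid synthesis, to -1.13. The ID8 markers fell in the same libraries with a median of -2.32, and their part in these falls was not tested. Of 15 genes of other isoprenoid branches (ubiquinone, dolichol, prenylation) 0 passed as higher and 2 as lower in limma on FPKM, with 1 higher and 4 lower at an unadjusted p under 0.05 and 5 higher and 1 lower in limma voom, and their median was -0.06. After centring all 15 were lower, beside 62.1% of all tested genes.

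**Figure D5:**
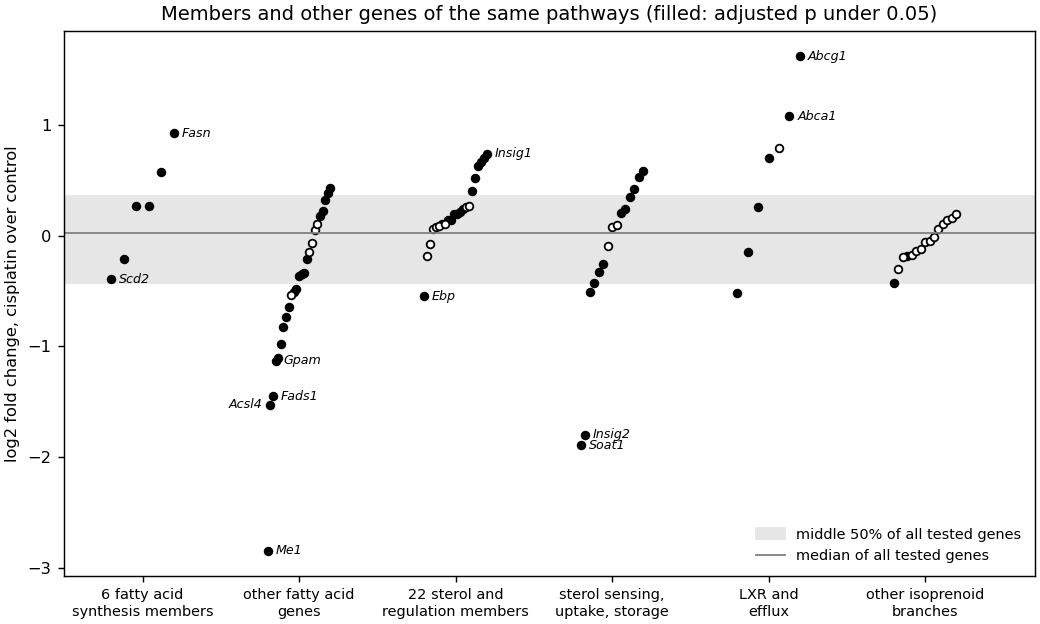
log2 fold change (cisplatin over control) on the FPKM scale as deposited for the 28 members and for 4 lists of other genes of the same pathways, with 1 point per gene (filled for adjusted p under 0.05 in limma, open otherwise) sorted within each list. The band spans the middle 50% of all tested genes (-0.43 to 0.36). Most members lie within it, others such as Fasn and Insig1 lie above it, and Ebp lies below it. Me1, Soat1, Insig2, Acsl4, Fads1 and Gpam lie far below it and Abcg1 and Abca1 far above. Centring on T-cell genes lowers every point by 0.51.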

How the data were processed

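The authors deposited a table of FPKM values for 54532 genes in 6 libraries, with 0 further sample columns. The submitters' processing notes name fastp, HISAT2 2.0.5, featureCounts 1.5.0-p3 and mm10, whereas the methods of the study name LifeScope. Strand and multimapping settings are not given in the sources used here. Gene coordinates matched GENCODE M21 for 53499 of 54409 genes. FPKM times gene length was a whole multiple of 1 read for 100% of values (tolerance 0.1), which gave the rebuilt reads. These cover counting error only, and the denominator behind the FPKM was 1.04 times these reads with cisplatin and 0.980 times in controls. No libraries held identical values, and replicates differed beyond sampling noise (chi-square per degree of freedom 5.35 to 6.44).

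Genes that averaged 0.5 FPKM or more were tested as log2(FPKM + 0.1) in limma 3.58.1 (R 4.3.3, lmFit, eBayes with trend) with Benjamini-Hochberg adjustment. A gene passed at an adjusted p under 0.05, and was called if it also changed by at least 2-fold. Fold changes on this scale understate those of low genes. Count models were not used on FPKM. Other pseudocounts (1 and 0.01), filters, scalings, limma voom on rebuilt reads, a replicate block and leaving out each library were the 18 alternatives. Steps were tested on simulated data. The members and lists were chosen with earlier results of these data known. Members were named freely, and other pathway genes were named if called, up to 8 by absolute fold change where the higher group averaged 5 FPKM or more. Certain listed genes are not named here. Tables were handled in python 3.11.15 with numpy 2.4.6 and pandas 2.3.3, and figures in matplotlib 3.10.9. Promoter sequences are from RefSeq.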

Additional observations from a re-analysis of the deposited data

How the results depend on the processing

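Of the choices tried, the scaling between libraries mattered most. Centring on the 26 T-cell genes gave 5 members higher and 18 lower (17 and 3 as deposited), beside 913 higher and 9858 lower of all 15874 genes (5.75% and 62.1%), 1 called lower (Ebp) and a median of -0.31, with medians of -0.24 for the mevalonate, -0.32 for the sterol, -0.34 for the regulation and -0.25 for the fatty acid genes. Fold changes that turned negative were Acat2 -0.11, Hmgcs1 -0.40, Mvk -0.37, Pmvk -0.45, Fdps -0.24, Sqle -0.32, Lss -0.42, Tm7sf2 -0.26, Msmo1 -0.27, Nsdhl -0.30, Sc5d -0.40, Dhcr7 -0.43, Srebf1 -0.32, Srebf2 -0.36, Acly -0.25 and Acaca -0.25. Stard4 turned positive with quantile normalization (0.0342) and voom (0.0108). Of all genes, 161 were then called higher and 3413 lower with centring, and quantile normalization and voom moved the median of all genes to 0.16 and 0.10. The members' median was 0.18 with a pseudocount of 1, 0.30 with quantile normalization, 0.18 with TPM, 0.29 with voom and 0.17 to 0.23 without single libraries. Voom called 1 member higher (Fasn). Over all genes, 653 were called higher and 2034 lower (75.7% lower) as deposited. In addition, 903 were called lower at a mean of at least 5 FPKM, and called higher were 311 with a pseudocount of 1, 242 at that minimum, 255 among protein-coding genes and 1127 with voom. The share called lower was 64.6% with quantile normalization, 95.5% with centring and 87.5% for protein-coding genes. The cause of these differences was not tested. With the replicate block 15 members were higher and 3 lower (Hmgcs1 and Mvk no longer passed). Of all 15874 genes, 4147 then passed as higher and 4417 as lower, and 651 were called higher and 2011 lower. Deviations of libraries with the same number correlated at 0.052, 0.005 and -0.024, and those with unlike numbers at -0.107 to 0.108. No pairing by number was visible, but so few libraries cannot settle whether they are paired. Fdps and Tm7sf2 had the fewest reads of the members (125 and 256 in their lowest libraries).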
